A study of Gallus gallus with 28 samples.

Results

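The 100 genes described here were taken from 11207 Ensembl gene identifiers counted in Cobb broiler chicks (Gallus gallus) on day 10 after hatching, in the anterior preoptic part of the hypothalamus. They were chosen by their measured RNA levels, which lay above those of unchallenged chicks after heat in both of 2 parental lineages. After lipopolysaccharide (LPS, from the wall of bacteria) was put into the brain, the levels lay within 0.4 of those of unchallenged chicks on a log2 scale, on the mean of both lineages. Counts were scaled by the library total to CPM (counts per 1e6 counts of the library) and taken as log2(CPM + 1). The heat response was the mean over 3 heated libraries minus the mean over 3 unchallenged (t0) libraries, computed in each lineage. A gene was eligible with a mean of 20 to under 1000 CPM over all 18 libraries, a mean of both heat responses of at least 0.15, and an LPS response, taken over both lineages, between -0.4 and 0.4. Of 4630 genes in the CPM range, 624 met these conditions and 270 of them had both heat responses above 0. The genes are ranked by the lower of their 2 heat responses, and the first 100 are the members.

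The values that chose the members are the heat and LPS responses themselves, so the size and sign of those responses are given as a description and not as a finding. At the edge of the choice, the lower response was 0.151 at rank 99 and 0.15 at rank 100, and it was 0.149 in each of the next 2 genes, left outside.

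The lineages are named for the parents: the RNA labels call the chicks of one lineage offspring of non-conditioned and those of the other offspring of conditioned parents, and the protocol calls the challenged chicks themselves nonconditioned. Conditioning, as described for the methylation samples of the same study (whose labels give it as paternal), was egg incubation at 39.5 °C for 12 h a day from embryonic day 7 to 16, while control eggs were kept at 37.8 °C. Each lineage had 3 libraries of unchallenged chicks (t0, at 30 °C), 3 of chicks 6 h after a move to 36 °C, and 3 of chicks 6 h after LPS was injected into the third ventricle. No group analysed here was moved or injected without a challenge, so the effects of heat and of the move or the 6 h that passed cannot be told apart, and the same holds for LPS and its injection. The labels do not say whether the libraries came from separate animals, and tests over 3 libraries a group then measure the spread between libraries alone.

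The preoptic area is the part of the hypothalamus that senses brain temperature, receives signals from thermoreceptors of the skin, and sets heat loss and heat production. In birds, which do not sweat, heat defence rests on panting, blood flow to the skin and behaviour. Known responses of vertebrate cells to warming include the induction of heat shock chaperones, which refold damaged proteins, through heat shock factors. Whether genes of that kind are among the members could not be read, since the deposited table repeats the identifier in place of a gene name and 0 of the 11207 identifiers could be paired with the 25635 genes of the reference table at hand. The gene lists and cell type markers drawn up for the tissue therefore could not be applied, the labelled tissue was not checked against markers, and genes are given by identifier and rank. In whole tissue, fewer cells of a type and less RNA per cell cannot be told apart.

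Library totals ran from 828424 to 4589179 counts, with 9501 to 10967 genes counted in a library. At t0 the depth followed the lineage: the non-conditioned libraries held 3379626 to 4589179 counts and the conditioned ones 828424 to 1422688. The median count of a member was 199.5 in the deepest-covered library for these genes (t0 library 1 of the non-conditioned lineage) and 24 in t0 library 3 of the conditioned lineage. The members together held 0.425% to 0.753% of a library's counts. Of the 100 members, 100 passed the low-count filter and entered the tests, and 7921 genes did so in all.

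The heat responses of the members were small. In the non-conditioned lineage they ran from 0.15 to 1.59 with a median of 0.24 on the log2(CPM + 1) scale, and in the conditioned lineage from 0.15 to 1.69 with a median of 0.40. The response was larger in the conditioned lineage for 67 members and in the other lineage for 33. A response of at least 0.5 was reached by 8 members in the non-conditioned lineage and 37 in the other, and by 5 in both. A response of at least 1 was reached by 1 member in the non-conditioned lineage (rank 2) and by 4 in the conditioned lineage (ranks 11, 19, 29 and 92), and by 0 members in both.

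**Figure D1:**
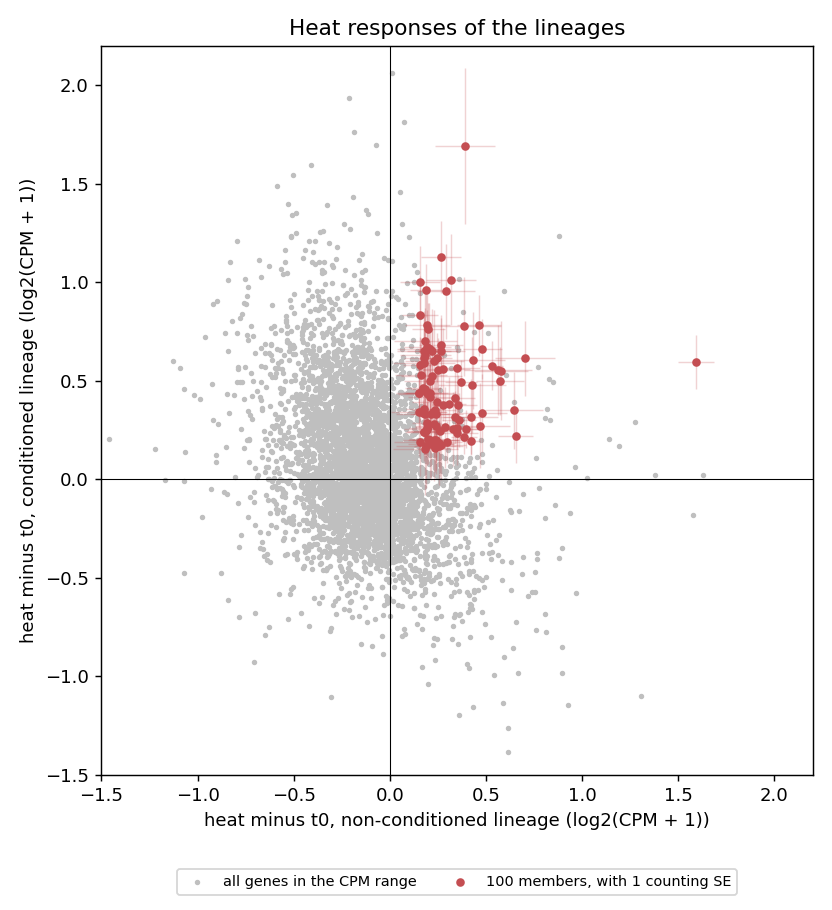
Heat response of each gene with a mean of 20 to under 1000 CPM in the non-conditioned lineage (x axis) and the conditioned lineage (y axis), both as the difference of mean log2(CPM + 1). Grey points are all 4630 genes, of which 17 lie outside the axes, and red points are the 100 members with bars of 1 counting standard error. The members fill the upper right corner from 0.15 on both axes, because that corner chose them, and most lie close to its edge.

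These differences lie near the counting error for many members. The standard error that counting alone gives to a response had a median of 0.12 over the members in the non-conditioned lineage and 0.17 in the conditioned lineage, where it reached 0.40. Both responses were at least 2 such errors from 0 in 42 of the 100 members. Low abundance was common, with 54 members under a mean of 50 CPM, 33 from 50 to under 100 CPM and 13 from 100 CPM up. The members made up 2.95% of all genes in the lowest of these bands, 2.63% of the middle one and 0.843% of the highest. The median of both responses averaged was 0.37, 0.35 and 0.30 in the same order.

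Over all 4630 genes in the CPM range the median heat response on this scale was -0.13 in the non-conditioned lineage and 0.04 in the other, a shift that the scaling by library total leaves in. With TMM factors, which scale libraries so that most genes do not differ, these medians became -0.01 and -0.02, and the medians of the members 0.36 and 0.34. With TMM factors the members' median responses were thus about equal in the lineages, and the excess in the conditioned lineage seen with library totals was not there. The rule limited both responses, so this is a description. The number of genes with both responses at or above the lowest member's 0.15 was 147 with library totals, and the number at or below the same value with a minus sign was 374. With TMM factors these numbers were 226 and 247. Of the 147, 46 were left out because their LPS response was above 0.4 and 1 because it was below -0.4.

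In edgeR's quasi-likelihood fit of all 18 libraries, with TMM factors and adjustment over 7921 genes, the members had a median log2 fold change under heat of 0.36 over both lineages (range 0.20 to 1.12, median SE 0.17). EdgeR called 0 of the 100 members at an adjusted p of 0.05 there, against 3 genes or 0.0379% of all genes. At an unadjusted p under 0.05 there were 51 members, all higher, against 3.96% of all genes on the higher and 2.68% on the lower side. DESeq2, which left the adjusted p of 51 members missing, and limma voom also called 0 members in that comparison. In the non-conditioned lineage alone edgeR called 0 members, where 4 genes or 0.0505% of all were higher, with 26 members at an unadjusted p under 0.05 (4.01% of all genes on that side, and 2.69% on the lower side). DESeq2 called 2 members and limma voom 0, and the shares of all genes given here are edgeR's. In the conditioned lineage edgeR called 0 members among 0 genes in all, with 15 members at an unadjusted p under 0.05 (6.77% of all genes on that side, and 6.29% on the lower side). There DESeq2 called 1, with the adjusted p of 54 members missing, and limma voom 0. The genes DESeq2 called were, for the non-conditioned lineage, ENSGALG00000002397.5 (rank 48) and ENSGALG00000005796.4 (rank 68) and, for the conditioned lineage, ENSGALG00000011340.5 (rank 69), identified after their values were seen. The contrasts are those that chose the members, and nothing is read from these counts.

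The 6 heated libraries did not carry the pattern equally. A mean deviation was taken for each library as the mean over the 100 members of log2(CPM + 1) minus the gene's own mean over 18 libraries. In the non-conditioned lineage it was 0.37, 0.33 and 0.13 in heated libraries 1, 2 and 3, and -0.02, 0.01 and -0.04 in the t0 libraries. In the conditioned lineage it was 0.28, 0.12 and 0.07 under heat and -0.10, -0.26 and -0.54 at t0. All 6 heated libraries were above all 6 t0 libraries, as the choice of the members arranges. The SD over 3 libraries was largest in the conditioned t0 group, at 0.22, then 0.13 and 0.11 in the non-conditioned and conditioned heated groups, and 0.02 in the non-conditioned t0 group.

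**Figure D2:**
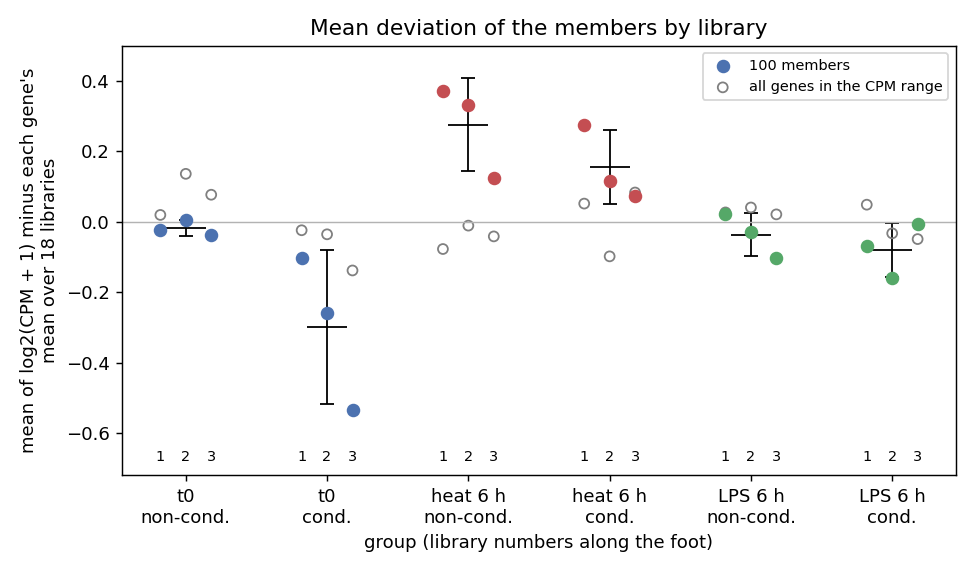
Mean deviation of the 100 members (filled points, mean of log2(CPM + 1) minus each gene's mean over 18 libraries) in each of the 18 libraries, with the group mean and SD over 3 libraries as bars. Open points give the same quantity over all 4630 genes in the CPM range. The heated libraries lie between 0.07 and 0.37, and t0 library 3 of the conditioned lineage lies lowest, at -0.54.

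The low point of the pattern was t0 library 3 of the conditioned lineage, the shallowest library with 828424 counts. The mean deviation over all genes in the CPM range was also lowest there, at -0.14. For 44 of the 100 members this library held the lowest value of all 18, against 22.9% of the genes in the CPM range. Inside the conditioned t0 group it was lowest for 61 members (42% of all genes in the range), and library 1 was lowest for 16 (36.4%). 

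The size of the response in the conditioned lineage differed with the t0 library it was taken against. The non-conditioned lineage was not split in this way. Against t0 library 1 alone the members had a median response of 0.24, and 76 of the 100 were above 0. Against t0 library 2 alone the median was 0.37 with 90 members above 0, and against library 3 alone it was 0.60 with 96 above 0. No share of all genes in the range is given beside these counts. The mean deviation over those genes was -0.02, -0.04 and -0.14 in t0 libraries 1, 2 and 3. How far that shift enters the counts was not tested. Depth fell in the same order, from 1422688 counts in library 1 to 1168108 and 828424 in libraries 2 and 3, and its part in the response was not tested. When heated libraries were set against the t0 libraries of the other lineage, the members' median was 0.52 for non-conditioned heat against conditioned t0, with 99 members above 0 (49.7% of all genes in the range). It was 0.14 for conditioned heat against non-conditioned t0, with 80 members above 0 (33.7%). These comparisons use the libraries that chose the members and cross the lineages.

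Leaving out a single t0 or heated library brought at least 1 of a member's 2 responses to 0 or below in up to 7 members, the most without t0 library 1 of the non-conditioned lineage. Both responses stayed above 0 in 78 members whichever 1 of these 12 libraries was left out. The ranking was less steady. Applied to 17 libraries, the same rule returned 61 to 71 of the 100 members when a non-conditioned t0 or heated library was missing. The 61 were found without non-conditioned heated library 1. It returned 70 to 86 when a conditioned t0 or heated library was missing, and 92 to 95 when an LPS library was missing. With conditioned t0 libraries 2 and 3 both missing it returned 46 of the 100, which are also 46.0% of the new list of the same length.

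**Figure D3:**
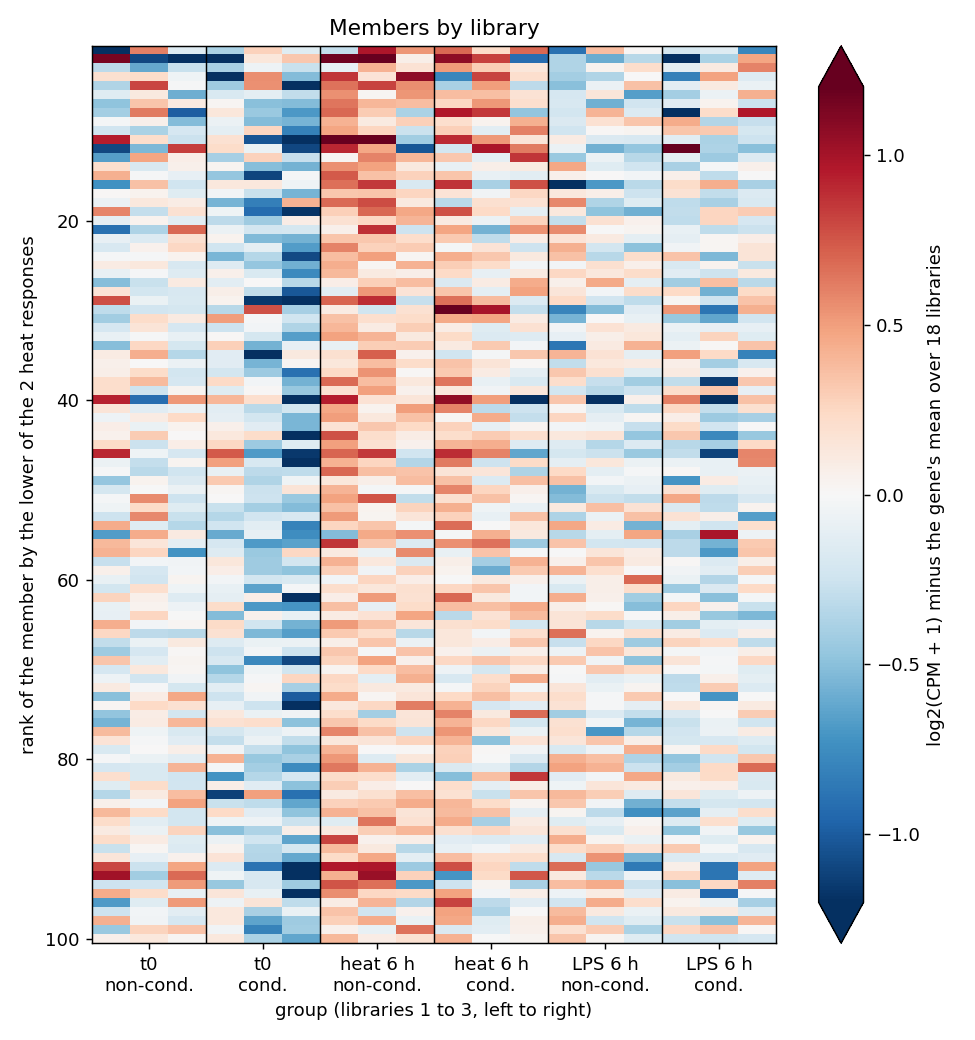
The 100 members (rows, by rank) in the 18 libraries (columns, 3 a group), coloured by log2(CPM + 1) minus the gene's mean over 18 libraries, with colours saturated past 1.2 in either direction. Red fills most of the heated columns, blue most of t0 libraries 2 and 3 of the conditioned lineage, and single rows of strong colour in 1 or 2 libraries show members with wide spread inside a group.

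With library totals, all 3 heated libraries lay above all 3 t0 libraries in 14 members in the non-conditioned lineage, where 2.46% of genes in the CPM range did so, and in 21 members in the conditioned lineage, where 9.42% did. With TMM factors these counts were 34, against 6.52% of genes in the range, and 20, against 7.47%. In both lineages at once this held for 3 members, ENSGALG00000005579.6 (rank 3), ENSGALG00000009312.5 (rank 7) and ENSGALG00000005610.5 (rank 9), out of 7 genes in the CPM range. With TMM factors it held for 7 members out of 14 such genes. All 6 heated libraries lay above all 6 t0 libraries in 0 members with library totals (0.0216% of genes in the range and 0.0252% of all genes tested) and in 5 with TMM factors (0.173%). These 5 were ENSGALG00000005579.6 (rank 3), ENSGALG00000002789.5 (rank 6), ENSGALG00000005610.5 (rank 9), ENSGALG00000008504.6 (rank 17) and ENSGALG00000002107.5 (rank 24). They were identified after their values were seen, and the rule used the same contrast.

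ENSGALG00000039209.2, at rank 1, had the highest lower response, 0.61 in the conditioned lineage, beside 0.71 in the other. At t0 it stood at 9.84, 41.2 and 24 CPM in the non-conditioned lineage and at 20.4, 32.5 and 24.1 CPM in the conditioned one. Under heat it stood at 21.8, 53.2 and 39.0 CPM and at 43.8, 31.3 and 43.7 CPM. The groups overlapped in both lineages: t0 library 2 of the non-conditioned lineage was above 2 of the 3 heated libraries, and t0 library 2 of the conditioned lineage was above 1. After LPS it stood at 13.9, 34.8 and 27.1 CPM and at 23, 24 and 15.1 CPM, inside the range of t0 in the non-conditioned lineage and, for library 3, below it in the other. The fitted log2 fold change under heat was 0.68 ± 0.28 (SE) over both lineages.

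ENSGALG00000006771.5, at rank 2, had the largest response of all members in the non-conditioned lineage, 1.59, and 0.59 in the other. Its spread inside groups was wide. The non-conditioned libraries held 134, 27.9 and 25.7 CPM at t0 and 137, 321 and 63.6 CPM under heat. The conditioned libraries held 24.6, 66.8 and 76.0 CPM at t0 and 128, 108 and 31.7 CPM under heat. In the non-conditioned lineage t0 library 1 was close to heated library 1 and above heated library 3, and in the conditioned lineage heated library 3 was below 2 of the t0 libraries. The fitted log2 fold change over both lineages was 1.12 ± 0.48 (SE).

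After LPS the members stayed close to t0 on the mean of both lineages, as the band of the rule requires. Their LPS response over both lineages had a median of 0.11 on the log2(CPM + 1) scale and was above 0 in 73 members, at or above 0.2 in 31 and at or below -0.2 in 5. In the edgeR fit the median log2 fold change was 0.09 in the non-conditioned lineage, with 61 members above 0, and 0.18 in the conditioned lineage, with 80 above 0. Of all genes tested 50.5% and 53.0% were above 0. Single members ran from -0.57 to 0.50 in the non-conditioned and from -0.59 to 1.13 in the conditioned lineage. The band limits the mean of both lineages, so the values and calls in each lineage are not free of it either. Without t0 libraries 2 and 3 the median in the conditioned lineage was 0.04. EdgeR called 0 members over both lineages, against 2.92% of all genes on the higher and 0.745% on the lower side, and 9 members, all higher, were at an unadjusted p under 0.05 (8.42% and 5.48% of all genes). It called 0 in the non-conditioned lineage (2.21% and 0.341%), with 6 members higher at an unadjusted p under 0.05 (5.95% and 3.95%). It called 0 in the conditioned lineage (1.17% and 0.101%), with 4 higher and 1 lower at an unadjusted p under 0.05 (6.98% and 4.89%). DESeq2 called 0 in each. The heat and LPS responses share their t0 libraries.

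Heat against LPS gave a median log2 fold change of 0.24 over both lineages, with 93 members above 0 and 7 below. Of all genes tested 52.1% were above 0. EdgeR called 1 member higher under heat, against 0.328% of all genes, and 0 lower, against 2.60%, and 23 members were at an unadjusted p under 0.05 (4.51% of all genes on that side). DESeq2 called 4 members higher, those at ranks 7, 13, 16 and 31, and the shares of all genes given here are edgeR's. Both ends of this comparison were limited by the rule, so its counts, calls and libraries without overlap are a description, and nothing is read from them. The called gene was ENSGALG00000009312.5 (rank 7), with 76.8, 65.0 and 63.6 CPM under heat in the non-conditioned lineage and 58.4, 70.8 and 56.7 CPM in the conditioned one. After LPS it held 42.7, 32.6 and 41.7 CPM and 44.5, 50.6 and 41.0 CPM. All 6 heated libraries lay above all 6 LPS libraries, by a fitted log2 fold change of 0.62 ± 0.15 (SE). At t0 it held 34.9, 61.9 and 53.0 CPM and 49.9, 34.2 and 33.8 CPM, below the heated libraries of its own lineage in each case.

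The call of ENSGALG00000009312.5 was lost when heated library 1 or LPS library 2 was left out on the non-conditioned side, or heated library 2, LPS library 1 or LPS library 3 on the conditioned side, with edgeR adjusted p-values of 0.0552 to 0.0638 in these 5 fits, within a range of 0.0044 to 0.0638 over all alternatives. Its log2 fold change stayed between 0.55 and 0.67. By library totals, ENSGALG00000027036.2 (rank 31) was the only other member with all 6 heated libraries above all 6 LPS libraries. This held for 0.302% of genes in the CPM range, and the gene was identified after its values were seen. Its fitted log2 fold change over both lineages was 0.28 ± 0.17 (SE) for heat against t0 and -0.36 ± 0.18 (SE) for LPS against t0. With TMM factors ENSGALG00000012464.1 (rank 13) also had all 6 heated libraries above all 6 LPS libraries, with no share of all genes given there.

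**Figure D4:**
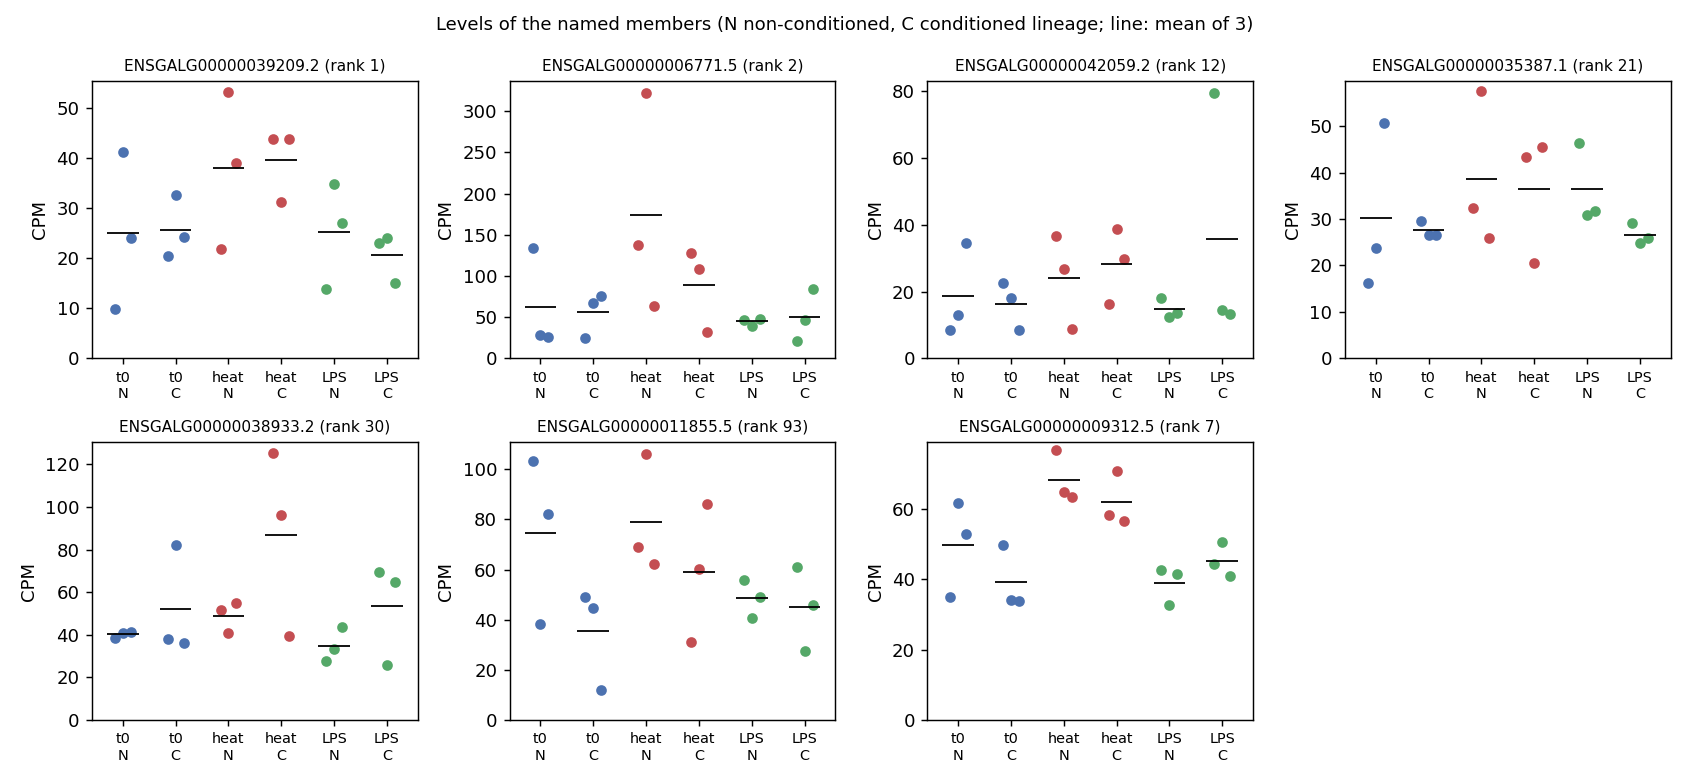
CPM by library total of 7 members in every library, 3 points a group in the order of library numbers, with a line at the mean. N is the non-conditioned and C the conditioned lineage. ENSGALG00000009312.5 has all heated points at 56.7 CPM or more and all LPS points at 50.6 CPM or less, while in the other 6 genes heated and t0 points overlap in at least 1 lineage.

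The comparison of lineages after LPS asks whether the members depended on the parents' conditioning in chicks under immune challenge. The rule used the LPS libraries through their mean over lineages and through the mean CPM over all 18 libraries. The difference between lineages is the comparison here that least depends on the choice. It is not free of it, since a high value in a single LPS library could help a gene reach the CPM range. The median log2 fold change of the members, conditioned against non-conditioned, was -0.04, with 39 members above 0 and 61 below, where 50.2% of all genes tested were above 0. EdgeR called 0 members and 0 genes in all (0%), 4 members were higher at an unadjusted p under 0.05 (2.27% of all genes) and 0 were lower (1.53%), and DESeq2 called 0. The median was 0.04 without LPS library 1 of the non-conditioned lineage and 0.00093 without that of the other, so its sign rested on either of them. With library totals the groups did not overlap in 1 member on the higher side (3.24% of genes in the range) and 6 on the lower side (5.70%). With TMM factors these counts were 5 (4.73%) and 3 (4.36%). Which side held more depended on the scaling, for the members and for all genes in the range alike.

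The member with the highest log2 fold change in that comparison was ENSGALG00000042059.2 (rank 12), at 1.37 ± 0.62 (SE, edgeR adjusted p = 0.999). It held 79.6, 14.6 and 13.2 CPM after LPS in the conditioned and 18.1, 12.5 and 13.5 CPM in the non-conditioned lineage. The difference came from LPS library 1 of the conditioned lineage, and the other LPS libraries of both lineages overlapped. The lowest was ENSGALG00000035387.1 (rank 21), at -0.41 ± 0.36 (SE, edgeR adjusted p = 0.999), with 29, 24.9 and 25.8 CPM in the conditioned and 46.4, 31 and 31.8 CPM in the non-conditioned lineage. Every conditioned library was below every non-conditioned one, and the change was little larger than its SE.

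Over t0 and heat together, the members were mostly lower in the conditioned lineage. The median log2 fold change was -0.16, with 82 members below 0 and 18 above, where 48.6% of all genes tested were above 0. EdgeR called 0 members and 0 genes in all (0%). At an unadjusted p under 0.05, 13 members were lower (4.14% of all genes) and 2 were higher (3.71%), and DESeq2 called 0. At t0 alone the median was -0.12, with 73 members below 0 and 0 called, and under heat -0.17, with 87 below 0 and 0 called (0.0252% of all genes called lower). Of all genes tested 48.1% were above 0 at t0 and 49.3% under heat. With library totals, the t0 libraries of the lineages did not overlap in 7 members on the lower side (16.9% of genes in the range). On the higher side this held for 0 members (6.5%). At an unadjusted p under 0.05, 6 members were lower and 0 higher at t0 (7.60% and 8.09% of all genes), and 7 were lower and 1 higher under heat (3.23% and 2.65%). DESeq2 called 0 members in both, with 14 and 19 adjusted p-values missing.

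These libraries are the ones that chose the members, and their spread was unequal. The median SD of a member over 3 libraries, on the log2(CPM + 1) scale, was 0.34 in the conditioned t0 group and 0.23 to 0.27 in the other 5 groups. Over all genes in the CPM range it was also largest in the conditioned t0 group, at 0.28 against 0.17 to 0.23. With conditioned t0 libraries 2 and 3 left out, the median at t0 was 0.01 and that over t0 and heat -0.10. How far the choice of the members itself set the sign was not tested.

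The member highest in the conditioned lineage over t0 and heat was ENSGALG00000038933.2 (rank 30), with a log2 fold change of 0.63 ± 0.27 (SE). It held 38, 82.2 and 36.2 CPM at t0 and 125, 96.3 and 39.3 CPM under heat in the conditioned lineage, and 38.6, 40.7 and 41.4 CPM and 51.5, 40.7 and 54.7 CPM in the other. Its conditioned libraries thus spanned the values of the non-conditioned ones and went above them. The lowest was ENSGALG00000011855.5 (rank 93), at -0.73 ± 0.30 (SE). In the conditioned lineage it held 49.2, 44.5 and 12.1 CPM at t0 and 30.9, 60.1 and 86.1 CPM under heat. In the non-conditioned lineage it held 104, 38.1 and 82.3 CPM at t0 and 69.0, 106 and 62.2 CPM under heat. Conditioned t0 library 3 was its lowest of all 18.

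How far the heat responses of the lineages differed was limited by the rule, which asks for a response in both. In the edgeR fit its median was -0.06 over the members (conditioned minus non-conditioned), with 63 below 0, and 0 members were called among 0 genes in all (0%). At an unadjusted p under 0.05 there were 2 members with a lower and 0 with a higher response in the conditioned lineage (7.18% and 6.65% of all genes), and DESeq2 called 0, with 4 adjusted p-values missing. The sign of the median depended on the scaling, and with library totals in place of TMM factors it was 0.13.

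Deviations of libraries from their group mean are not free of the choice either, since single libraries that stood apart helped to set the group means. Over the 18 libraries, the median Pearson r between the within-group deviations of 2 members was 0.10, against 0.05 for 2 genes of the CPM range. Without the conditioned t0 group it was 0.06 against 0.07. Pairs with an r of at least 0.8 made up 0.606% of member pairs and 0.566% of pairs in the range, and the first component held 26.6% and 24.4% of the within-group variance. All of these genes share libraries and depth, and the values are a description. The genes of the range were not matched to the members on abundance and had a median mean level of 65.1 CPM, against 43.1 CPM for the members.

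The largest group of members linked by an r of at least 0.85 held 5, at ranks 11, 29, 46, 66 and 92, and was found after the values were seen. It included 3 of the 4 members with a response of at least 1 in the conditioned lineage. Their mean deviation was 0.73 in t0 library 1 of the non-conditioned lineage, -0.10 and -0.10 in its t0 libraries 2 and 3, and 0.77, 0.84 and -0.34 in its heated libraries. In the conditioned lineage it was 0.20, -0.86 and -1.42 at t0 and 0.67, 0.34 and -0.15 under heat. In both lineages t0 library 1 lay above heated library 3, so the t0 and heated groups overlapped for this group of 5.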

How the data were processed

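RNA was measured in 18 libraries, and the 10 methylation samples of the study were not analysed here. Bulk MARS-seq, a 3′ end method, was used per the labels' protocols. The submitters' processing notes name galGal5 as the build and the tools HTSeq, DESeq2, cutadapt and STAR. Tool versions, strand and the use of molecular identifiers: not given in the sources used here. The table holds raw counts per gene as deposited, and a second block of signal that the authors made by dividing the counts of each library by 1 constant, which was not tested. Without gene models, reads shared by paralogs or by overlapping genes were not resolved.

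The members were chosen on CPM by column sums with a pseudocount of 1. Tests used edgeR 4.0.16 (TMM, low-count filter by group, quasi-likelihood, 1 model of 6 groups of 3) in R 4.3.3, with Benjamini-Hochberg adjustment over 7921 genes and a threshold of 0.05. SEs come from the fitted change and its F statistic. Alternatives used DESeq2 1.42.0, limma 3.58.1 (voom with quality weights), other scalings and filters, and each library left out. The fits were tested on counts simulated with the same spread setting for every gene and group. The spread of these libraries was unequal, so that test does not show how the fits do here. The counting SE takes each count's Poisson error and covers counting alone. No 2 libraries of a group agreed within sampling noise (lowest chi-square per gene 3.64).

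The members, lists and tests were chosen with earlier results of these data known. Named genes are the 2 highest by rank score and the highest and lowest member in 2 lineage comparisons (after LPS, and over t0 and heat). Others, ENSGALG00000009312.5 among them, are named where a count was 5 or fewer, after their values were seen. The gene lists and cell type markers could not be applied, since no identifier had a name. Library numbers are those of the sample titles.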

Additional observations from a re-analysis of the deposited data

How the results depend on the processing

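In 11 of the 12 comparisons edgeR called 0 members, and 270 of the counts under alternatives to these were also 0. The exceptions were DESeq2, with 2 members for heat in the non-conditioned lineage and 1 in the other, where 54 members had no adjusted p, and a single library. Leaving out each library in turn gave 0 to 2 members for heat and 0 to 1 for LPS in the conditioned lineage, and 0 to 1 for the lineages at t0, with the values above 0 all without t0 library 1 of the conditioned lineage. For heat against LPS the main count of 1 became 4 with DESeq2, 2 with limma voom, 2 with the compared groups alone, and 0 to 3 with each library left out. With the replicate block it was 2. No share of all genes is given beside these counts of the alternatives, and nothing is read from them. The titles' library numbers were not taken to pair the samples. Deviations of same-numbered libraries correlated by -0.23 to 0.25, and in 0 of 15 pairs of groups were all 3 values above 0.1. A sample correlated best with its own number in 41 of 90 comparisons, each among 3 libraries. These values do not exclude a pairing. By the numbers in the sample descriptions, which differ from the titles', the correlations were -0.21 to 0.25 over 34 pairs of libraries, and in 0 of the 4 pairs of groups that share 3 numbers were all above 0.1. The block changed no count of members called in the other comparisons.

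The rule returned 67 of the 100 members with TMM factors, 99 and 95 with pseudocounts of 0.5 and 5, 56 with group medians in place of means, and 46 with a mean CPM from 50, which by construction drops the 54 members below it. With each library left out it returned 61 to 95. With conditioned t0 libraries 2 and 3 left out it returned 46, an alternative added after the data were seen, as was TMM scaling for libraries that do not overlap. With that scaling the number of members without overlap went from 0 to 5 for 6 heated against 6 t0 libraries, from 14 to 34 for heat in the non-conditioned lineage (2.46% and 6.52% of genes in the range), and from 7 to 15 for the lineages under heat. In the conditioned lineage the 7 were 1 above and 6 below (9.09% and 2.74%), and the 15 were 0 above and 15 below (5.49% and 5.46%). The cause of these changes was not tested. Median log2 fold changes of the members moved by over the within-group SD of the mean deviation (0.12) in 6 of 312 values. Among these was LPS against t0 in the conditioned lineage, without conditioned t0 libraries 2 and 3. The medians changed sign in 5 values, all in lineage comparisons and in the difference of the heat response. Depth limits the conditioned t0 group most, where the median member had 24 to 59.5 counts.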
